A study of Mus musculus with 2 samples.

Results

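The genes described here are inhibitors of cyclin-dependent kinases (CDKs), the tumor suppressor p53 with its antagonist and targets, and transcripts that are read as signs of cellular senescence. They were taken by symbol from the table of all genes: Cdkn2a, Cdkn2b, Cdkn2c, Cdkn1a, Cdkn1b, Trp53, Mdm2, Gdf15, Glb1 and Lmnb1. The 10 symbols matched 11 of the 37309 entries, because the symbol Glb1 is given to 2 gene identifiers. Levels are given as RPKM, a read count scaled to exon length and library size. All 11 entries reached an RPKM of 1 in 1 or both libraries, so none dropped out at the filter on low values. Paired values below give the supportive library first. Intestinal subepithelial myofibroblasts (ISEMFs) are contractile stromal cells that lie under the crypt epithelium and supply it with growth factors. The supportive library came from ISEMFs grown from 5-day-old C57BL/6 neonates, labelled B19, and the non-supportive library from ISEMFs grown from 2-month-old adult C57BL/6 mice, labelled B20. Both were cultured from small intestine without any genetic change or treatment named in the labels, in a medium with serum, insulin, transferrin and epidermal growth factor according to the methods, and the sources used here give no count of mice, writing both of adult mice and of an adult mouse. The deposited names carry the codes P16 beside B19 and P3 beside B20, whose meaning is not stated. If they are culture passages, the supportive cells were passaged more often, and passage bears on senescence genes. The question was how supportive and non-supportive populations differ. With 1 library per population, no difference has a replicate check, and the age of the mice, the isolation, any difference in passage and the support of crypts cannot be told apart.

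A dividing cell passes from G1 into S phase when cyclin D with CDK4 or CDK6, and then cyclin E with CDK2, phosphorylate the retinoblastoma protein and free the E2F factors. INK4 proteins (p16Ink4a from Cdkn2a, p15Ink4b from Cdkn2b, p18Ink4c from Cdkn2c) bind CDK4 and CDK6, and Cip/Kip proteins (p21 from Cdkn1a, p27 from Cdkn1b) bind the cyclin-CDK complexes. p53 switches on Cdkn1a and Mdm2, and Mdm2 in turn sends p53 to the proteasome. In cultured fibroblasts, lasting arrest goes with more p16Ink4a and p21, a loss of lamin B1 (Lmnb1), more lysosomal β-galactosidase (Glb1) and secretion of cytokines and proteases.

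The promoter sequences of the genes that differed most (Cdkn1b and Cdkn2c) and of the most abundant ones (Cdkn1a and Mdm2) are shown for orientation. RefSeq windows were found for all 9 genes searched (Lmnb1 was left out), with 13 start sites among them. The 250 bases before each start were placed on mm9 by an exact match, and each matched at a single position. The windows were searched on both strands for the letters of common promoter elements. The element of the TATA-binding protein was written as TATAAA. The element bound by the factor NF-Y, the CCAAT box, was searched by the letters of its name. The GC box, which Sp1 binds, was written as GGGCGG in every search. For the E-box of Myc and related factors the letters were CACGTG throughout. The FOXO site was given by the letters GTAAACA on either strand. An E2F site was any of TTTGGCGC or else TTTCGCGC or else TTTCCCGC or else TTTGCCGC. The p53 response element is a pair of decamers, here up to 13 bases apart. Each decamer had to fit RRRCWWGYYY at every letter, where R is A or G, W is A or T and Y is C or T. Capitals mark the matches, none of which overlapped another. The sequences run 5′ to 3′ toward the start site.

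Cdkn1a, upstream start, chr17:29227674-29227923, plus strand: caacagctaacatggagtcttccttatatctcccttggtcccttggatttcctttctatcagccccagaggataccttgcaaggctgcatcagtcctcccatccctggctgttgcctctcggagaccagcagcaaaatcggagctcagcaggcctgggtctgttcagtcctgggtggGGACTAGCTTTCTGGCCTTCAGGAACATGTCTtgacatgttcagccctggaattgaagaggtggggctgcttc

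Cdkn1a, downstream start, chr17:29230464-29230713, plus strand: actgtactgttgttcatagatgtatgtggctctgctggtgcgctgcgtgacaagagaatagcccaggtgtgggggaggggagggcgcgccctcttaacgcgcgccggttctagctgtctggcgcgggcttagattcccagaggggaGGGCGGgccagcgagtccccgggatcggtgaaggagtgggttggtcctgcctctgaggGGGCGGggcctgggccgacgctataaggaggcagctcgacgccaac

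Cdkn1b, chr6:134870169-134870418, plus strand: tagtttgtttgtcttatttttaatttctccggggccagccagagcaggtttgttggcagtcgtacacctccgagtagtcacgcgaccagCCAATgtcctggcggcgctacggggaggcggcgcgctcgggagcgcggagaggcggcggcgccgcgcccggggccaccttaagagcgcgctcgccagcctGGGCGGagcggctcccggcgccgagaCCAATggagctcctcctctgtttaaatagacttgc

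Cdkn2c, downstream start, chr4:109337978-109338227, minus strand: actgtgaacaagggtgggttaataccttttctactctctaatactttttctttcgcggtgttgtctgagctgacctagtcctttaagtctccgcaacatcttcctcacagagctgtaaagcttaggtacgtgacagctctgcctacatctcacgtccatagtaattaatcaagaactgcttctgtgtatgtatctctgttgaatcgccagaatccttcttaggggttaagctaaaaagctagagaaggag

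Mdm2, chr10:117147815-117148064, minus strand: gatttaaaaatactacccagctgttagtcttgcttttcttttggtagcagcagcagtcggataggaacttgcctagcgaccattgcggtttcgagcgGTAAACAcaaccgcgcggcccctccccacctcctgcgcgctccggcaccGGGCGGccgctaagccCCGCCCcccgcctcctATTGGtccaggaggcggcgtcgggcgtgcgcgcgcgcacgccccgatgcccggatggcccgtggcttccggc

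The p53 response element was matched in the upstream window of Cdkn1a, with its decamers 12 bases apart, and in 21 (0.0639%) of the 32851 windows of all genes. Directly after the later decamer, GAACATGTCT, stands tgacatgttc, which departs from the pattern only at its first letter and so was not matched. The gap of 12 bases therefore belongs to the exact search, and need not be that of the element p53 binds. GC boxes, present in 32.7% of all windows, were found in the downstream window of Cdkn1a and in those of Cdkn1b and Mdm2. CCAAT boxes, present in 33.9% of windows, were found in those of Cdkn1b and Mdm2. The Mdm2 window also held the FOXO site, as did 3.17% of windows. The downstream window of Cdkn2c held none of the motifs. Its upstream window, which lies wholly in an annotated exon and is not printed, held 3 GC boxes. Cdkn2a, at its upstream start, had 2 GC boxes and an E2F site, the latter also in 1.86% of all windows. The window at its downstream start, from which p16Ink4a is made, held none of the motifs. Trp53 had the letters of a TATA box (12.4% of windows) on the opposite strand, 248 to 243 bases before the start. It also had a CCAAT box 8 to 4 bases before the start. Gdf15 had an E-box and a CCAAT box at its inner start, and Glb1 an E-box (6.02% of windows). Of the Trp53 and inner Gdf15 windows, 147 and 196 bases lay in an annotated exon. Cdkn1b and Mdm2 had 28 and 29 CpG dinucleotides in their windows, against a median of 6. These matches are descriptions of letters, and binding was not measured.

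Reads on genes numbered 50674472 and 49615497. The cells carried myofibroblast transcripts, at RPKM 908 and 1410 for Acta2 (α-smooth muscle actin), 325 and 407 for Vim (vimentin), and 0.575 and 3.40 for Des (desmin). Of the 7 myofibroblast markers listed, all past the filter, Col3a1, of type III collagen (272 against 26.4), and Pdgfrb, a growth factor receptor gene (28.1 against 7.67), were 2-fold higher and Des 2-fold lower. Macrophage markers differed between the libraries: the 11 of the 16 listed markers that passed the filter were all over 2-fold lower in the supportive library, where the RPKM of all 16 summed to 6.98 against 134, and 9 of the 16, Ptprc (CD45) and Tyrobp included, had no read. No endothelial marker of 8 passed the filter. Of 13 epithelial markers 2 passed it, in opposite directions. The stem cell marker Lgr5 had 6702 reads against 4 (RPKM 7.22 against 0.00443), and Krt20, of keratin 20, had 11 reads against 419. Markers below the filter also went both ways. Cdh1, of E-cadherin, had 159 reads against 18, the keratin gene Krt19 had 1 against 93, and Epcam had none against 5. Of 8 neuronal and glial markers 2 passed it, S100b with 709 reads against 12 and Tubb3 with 256 against 457, and Sox10 had none in either. Of 6 expressed smooth muscle markers, Myh11 (26.3 against 108) and Cnn1 (78.6 against 187) were 2-fold lower. The log2 ratio was below 0 for 5 of the 6 and above 0 for 1, Smtn. Myocd, below the filter, went the other way with 591 reads against 37 (RPKM 0.635 against 0.0409). The part of other cell types in the results below was not tested. In whole cultures, fewer cells of a type and less RNA per cell cannot be told apart.

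Of the 11 entries, 2 differed by at least 2-fold, Cdkn1b and Cdkn2c, both higher in supportive ISEMFs. This is 18.2% of the entries, close to the 18.3% of the 10086 genes past the filter that reached the same fold. Over all genes, 9.01% were 2-fold higher and 9.27% were 2-fold lower in supportive ISEMFs, or 909 against 935. This balance turned with the scaling, to 1076 against 772 with library sizes from nuclear protein-coding reads. For this count the fold was a log2 ratio of RPKM, with 0.1 added to each value, of at least 1 in size. The log2 ratio was below 0 for 8 entries and above 0 for 3, with a median of -0.39, against -0.07 for all 10086 genes, of which 55.3% were below 0. Intervals are 95% exact intervals from the reads unless named otherwise, and cover counting error only.

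**Figure D1:**
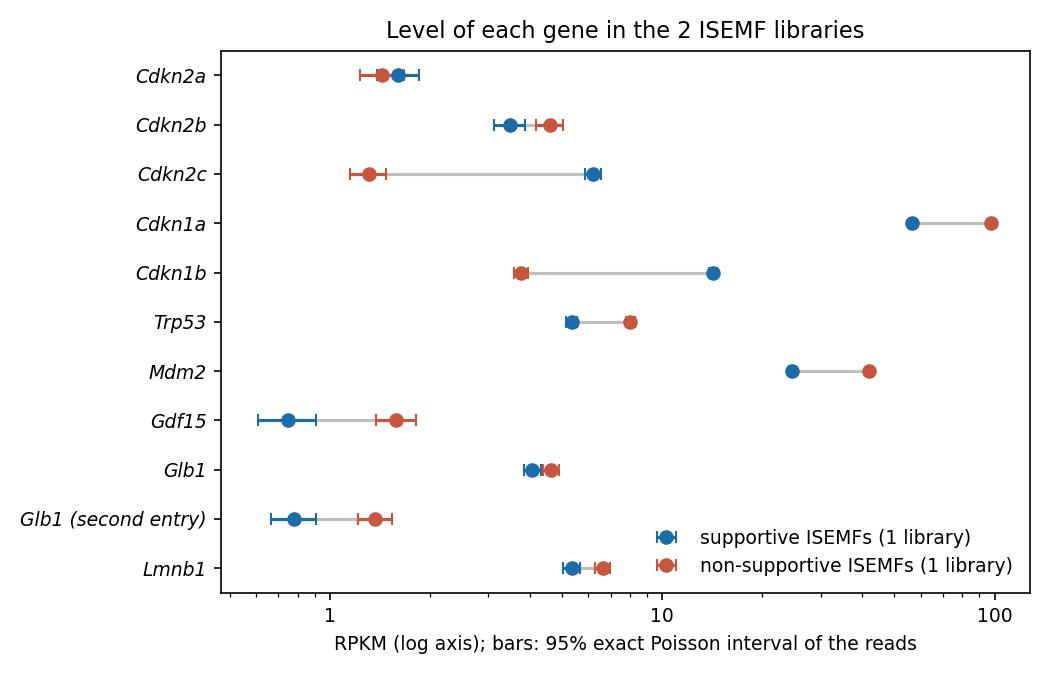
RPKM of each entry (log axis) in the supportive (blue) and non-supportive (red) library, 1 library each, with 95% exact Poisson intervals of the reads. Cdkn1b and Cdkn2c lie to the right in the supportive library, at 14.2 and 6.18 against 3.76 and 1.31, and Cdkn1a, Mdm2 and Trp53 lie to the right in the non-supportive library.

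Cdkn1b (ENSMUSG00000003031), the gene of p27, which holds cyclin-CDK complexes inactive in resting cells, lies on chromosome 6 of mm9 from 134870419 to 134875531. The supportive library held 6054 of its reads (RPKM 14.2) and the non-supportive library 1552 (RPKM 3.76). Cdkn1b was thus 3.79-fold higher in supportive ISEMFs (interval, 3.59 to 4.01), a log2 ratio of 1.89 that was larger than those of 96.4% of all expressed genes.

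Cdkn2c (ENSMUSG00000028551), the gene of p18Ink4c, an INK4 inhibitor of CDK6 and CDK4, lies on chromosome 4 from 109333481 to 109339794. It had 1248 reads (RPKM 6.18) against 257 (RPKM 1.31). It was 4.72-fold higher in supportive ISEMFs (interval, 4.12 to 5.42), with a log2 ratio of 2.16, and was the entry with the largest difference. With the deposited exon lengths it stood at place 4 of the 11 entries in the supportive library and at place 11 in the non-supportive one, where its interval overlapped that of the second Glb1 entry. With both other lengths tried it stood at places 5 and 10.

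The other members of the INK4 family differed less. Cdkn2a (ENSMUSG00000044303) lies on chromosome 4 from 88920377 to 88940557 and encodes p16Ink4a and, from a start 12427 bases upstream and in another reading frame, p19Arf, which binds Mdm2. The counts are per gene and cannot tell these products apart. Cdkn2a had 194 reads (RPKM 1.61) against 169 (RPKM 1.44). The ratio of 1.12 had an interval of 0.903 to 1.38, so a difference was not detectable at this depth. Cdkn2b (ENSMUSG00000073802), 11640 bases from Cdkn2a at 88952198 to 88956941, had 346 reads (RPKM 3.48) and 445 reads (RPKM 4.60), and was 1.32-fold lower in supportive ISEMFs (interval, 1.15 to 1.53). Mtap, the neighbouring gene of the methionine salvage pathway, was at RPKM 14.2 and 24.3, and Dmrta1 had 1 read and 5 reads. Cdkn2d, the remaining INK4 gene, had no read in either library, which allows an RPKM of up to 0.0330 and 0.0340, the values of 3 reads. This bound holds only for reads unique to the gene. Other reads were left out of the counts, and whether Cdkn2d lost reads in this way was not tested.

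Cdkn1a (ENSMUSG00000023067), the gene of p21, on chromosome 17 from 29227924 to 29237667, was the most abundant entry in both libraries. In supportive ISEMFs its 12412 reads (RPKM 56.5) put it at rank 328 of the 22379 protein-coding genes, and in non-supportive ISEMFs its 20842 reads (RPKM 97.6) put it at rank 169. It was 1.73-fold lower in supportive ISEMFs (interval, 1.69 to 1.77), short of 2-fold. Cdkn1c, the gene of p57 and the third Cip/Kip inhibitor, had 8 reads (RPKM 0.0398) against 405 (RPKM 2.07), which was 52.1-fold lower in supportive ISEMFs (interval, 26.2 to 122). Of the 7 genes of both inhibitor families, 6 passed the filter, 2 of them 2-fold higher and 1 2-fold lower.

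**Figure D2:**
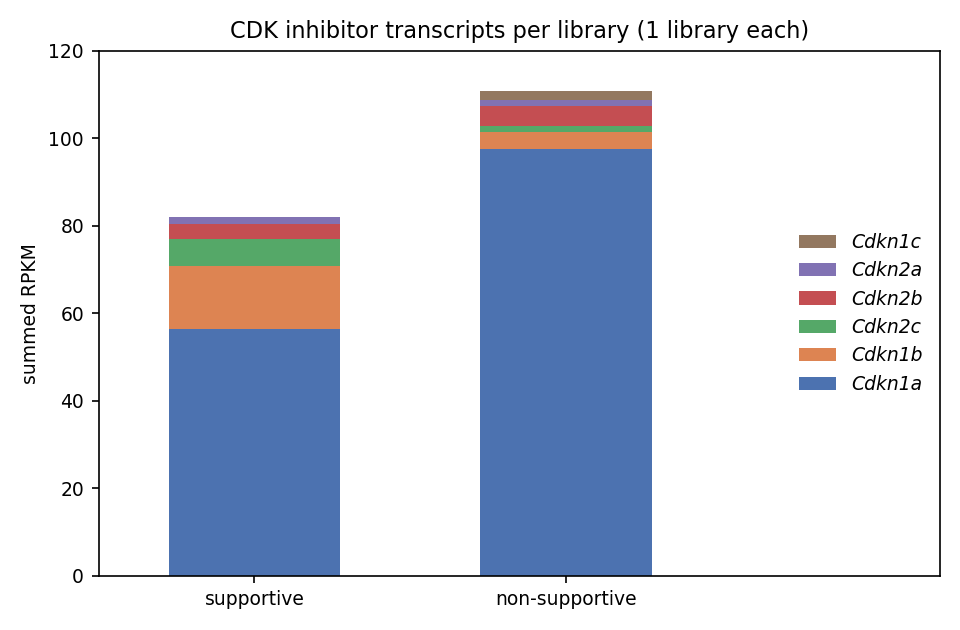
Summed RPKM of the CDK inhibitor genes in each library, 1 library each, stacked by gene. Cdkn1a makes 68.9% of the sum of 82.0 in the supportive library and 88.1% of the sum of 111 in the non-supportive library.

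The inhibitor transcripts were made up differently, as the stacked plot of the inhibitors shows. With the deposited lengths, their summed RPKM was 82.0 against 111. Cdkn1a made 68.9% and 88.1% of these sums, Cdkn1b 17.4% and 3.39%, and Cdkn2c 7.53% and 1.18%. The INK4 genes together, with Cdkn2d counted as 0, made 13.7% and 6.63%. Ratios of genes within a library do not depend on how the libraries are scaled. That of Cdkn1a to Cdkn1b was 3.97 in supportive and 26.0 in non-supportive ISEMFs, and differed 6.55-fold between them (interval from a normal approximation of the log ratio of reads, 6.17 to 6.96).

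Trp53 (ENSMUSG00000059552), the gene of p53, lies on chromosome 11 from 69393861 to 69405375. It had 2698 reads (RPKM 5.34) against 3944 (RPKM 8.03), and was 1.504-fold lower in supportive ISEMFs (interval, 1.43 to 1.58). Mdm2 (ENSMUSG00000020184), the ubiquitin ligase that targets p53 and is itself its target, lies on chromosome 10 from 117125944 to 117147814. It had 16632 reads (RPKM 24.5) against 27566 (RPKM 41.8), and was 1.71-fold lower (interval, 1.67 to 1.74). Cdkn1a and Mdm2 thus differed by nearly the same factor. Their ratio was 2.30 in supportive and 2.33 in non-supportive ISEMFs, and the interval for the change of this ratio, 0.958 to 1.02, held 1. The ratio itself depends on exon length, and with the longest coding transcripts it was 1.22 and 1.24. The log2 ratios of Cdkn1a, Mdm2 and Trp53 were -0.79, -0.77 and -0.58, and 13.03%, 13.54% and 19.85% of all expressed genes had lower ones.

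Mdm4, the relative of Mdm2 that blocks p53 without degrading it, went the other way. It was at RPKM 8.63 against 5.93, 1.45-fold higher (interval, 1.37 to 1.54), so that Mdm2 exceeded Mdm4 by 2.84-fold and 7.05-fold with the deposited lengths. Of the p53 family, Trp73 had no read in either library and Trp63 had 17 reads in the supportive library and none in the non-supportive one. Among the 22 expressed regulators of p53 listed, 1 differed 2-fold, Rpl11, a ribosomal protein that binds Mdm2, at 0.429 against 1.06. Rpl11 has near-identical copies in the genome, and its count from unique hits is uncertain.

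Gdf15 (ENSMUSG00000038508), a secreted stress cytokine of the TGF-β superfamily and a target of p53, lies on chromosome 8 from 73153292 to 73156355. It had 99 reads (RPKM 0.748) against 204 (RPKM 1.59). It was 2.12-fold lower in supportive ISEMFs (interval, 1.66 to 2.72), but its log2 ratio with the pseudocount was -0.99, just short of 2-fold, and with a pseudocount of 0.001 it was past it at -1.08. The GDF15 receptor gene, Gfral, had no read in either library, which allows an RPKM of up to 0.0200 and 0.0206 in reads unique to the gene.

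Glb1 (ENSMUSG00000045594), the gene of lysosomal β-galactosidase, lies on chromosome 9 from 114310194 to 114383495. Its main entry had 1104 reads (RPKM 4.07) against 1223 (RPKM 4.64), and was 1.14-fold lower (interval, 1.05 to 1.24). The second entry (ENSMUSG00000079260), with a single transcript from 114310223 to 114316394, had 163 reads (RPKM 0.781) and 278 reads (RPKM 1.37), and was 1.75-fold lower (interval, 1.44 to 2.14). Its exons form 2 blocks against 18 for the main entry. It carries the symbol Glb1 but may be a separate gene, so its values are not read as a level of β-galactosidase. The exons of the entries share 165 bases, and reads that fall there would not be unique to either gene and so not be counted.

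Lmnb1 (ENSMUSG00000024590), the gene of lamin B1 of the nuclear envelope, lies on chromosome 18 from 56867467 to 56913078. It had 1223 reads (RPKM 5.34) against 1473 (RPKM 6.62), and was 1.24-fold lower in supportive ISEMFs (interval, 1.15 to 1.34). Lmnb2, of lamin B2, was 1.34-fold higher there (RPKM 2.46 against 1.83; interval, 1.206 to 1.499), and Lmna, of lamins A and C, was at 18.1 and 16.7.

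**Figure D3:**
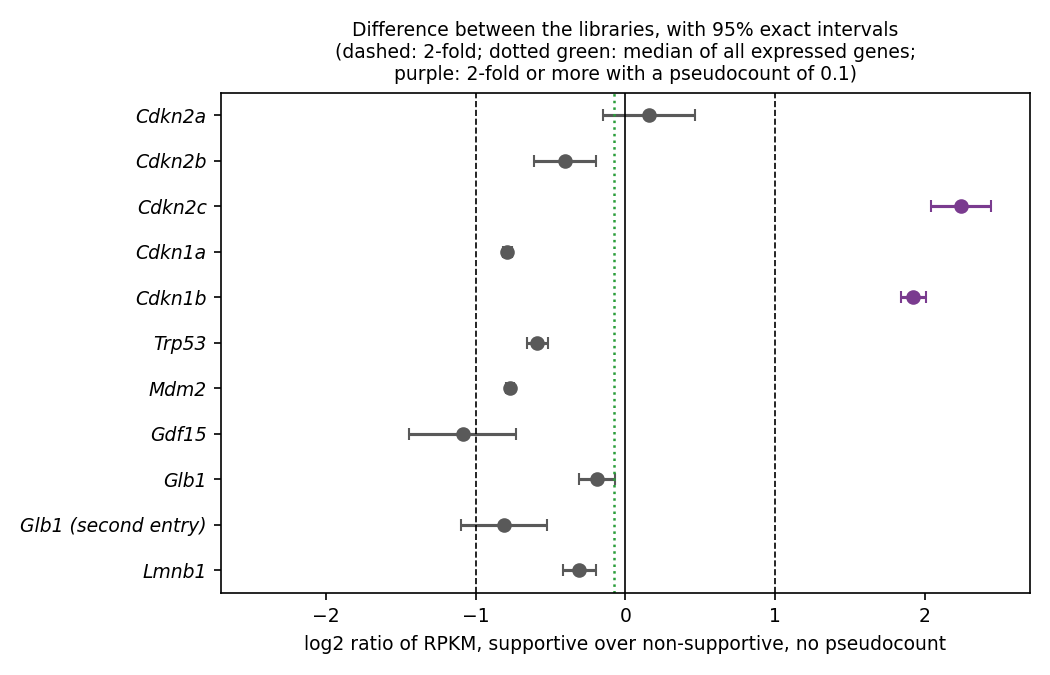
Log2 ratio of RPKM of supportive over non-supportive ISEMFs for each entry, without a pseudocount, with 95% exact intervals from the reads. Cdkn2c and Cdkn1b lie beyond the dashed line of a 2-fold difference on the right, only the interval of Cdkn2a holds 0, and Gdf15 lies past the dashed line on the left but stays gray, since its log2 ratio is -0.99 with the pseudocount.

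Within a library, levels per exon length ran from Cdkn1a and Mdm2 at the top to Gdf15 (supportive) and Cdkn2c (non-supportive) at the bottom. In the supportive library the order after Mdm2 was Cdkn1b, Cdkn2c, Lmnb1, Trp53, Glb1, Cdkn2b, Cdkn2a, the second Glb1 entry and Gdf15. The neighbours whose intervals overlapped were Lmnb1 and Trp53, Glb1 and Cdkn2b, and the second Glb1 entry and Gdf15. In the non-supportive library the order after Mdm2 was Trp53, Lmnb1, Glb1, Cdkn2b, Cdkn1b, Gdf15, Cdkn2a, the second Glb1 entry and Cdkn2c, and each of the last 4 overlapped its neighbour, as did Glb1 and Cdkn2b. The order depends on the exon length used. The deposited length of Trp53 is 7073 bases and its longest coding transcript 1867 bases, and with lengths of the longest coding transcript Trp53 moved from place 6 to place 3 in the supportive library and the second Glb1 entry came last in both.

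Few of the cell cycle genes around the inhibitors differed 2-fold, but Cdk6 did so by far. Cdk6, a kinase that p18Ink4c binds, was at RPKM 2.48 against 46.9, 18.9-fold lower in supportive ISEMFs (interval, 17.8 to 20.2). Cdk4, of the related kinase, was at 11.4 and 7.81, and Ccnd1, of cyclin D1, at 175 and 146. Of 10 expressed cyclin, CDK and related genes of G1 and S phase, none were 2-fold higher and 3 were 2-fold lower: Cdk6, Cdc25a (1.784 against 4.004) and Ccne1, of cyclin E1 (1.51 against 3.40). Of 14 RB and E2F genes, only the repressor E2f6 differed 2-fold, at 7.03 against 16.5. Of 29 expressed proliferation genes, only Rrm2, of ribonucleotide reductase, did, at 6.43 against 13.1, and its call was lost under all 4 other scalings. Their median log2 ratio was 0.10. Mki67, of the Ki-67 antigen, was at 45.5 and 36.7.

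None of the 7 expressed genes of p27 turnover differed 2-fold. Of the FOXO factors, transcription factors that can switch on Cdkn1b, 3 were expressed and 1 was 2-fold higher, Foxo1, at RPKM 13.5 against 3.23, 4.19-fold higher (interval, 3.94 to 4.46). Among 17 expressed regulators of the Cdkn2a locus, 1 was higher and 4 were lower. Ring1, a Polycomb protein, was at 1.95 against 0.844. The activator Ets1 was at 4.29 against 14.2, the inhibitor of Ets factors Id1 at 2.23 against 6.42, Id2 at 7.55 against 20.9, and the repressor Tbx3 at 0.616 against 1.62.

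Targets of p53 other than the genes above did not move one way. Of 31 expressed targets, 4 were 2-fold higher, 4 were 2-fold lower and 23 were neither, with a median log2 ratio of -0.07, the same as that of all genes. The higher ones were Pltp, a phospholipid transfer protein (7.19 against 0.300), Gadd45a, a growth arrest and DNA damage gene (46.9 against 9.57), Sesn1, a sestrin (10.2 against 3.71), and Btg2, an antiproliferative gene (18.5 against 9.07). The lower ones were the kinase gene Dyrk3 (0.182 against 2.56), Pmaip1, of the pro-apoptotic protein Noxa (7.64 against 32.8), Sfn, of 14-3-3σ (0.616 against 1.47), and Rprm, of reprimo (1.34 against 2.95).

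Genes of the integrated stress response, which also raises Gdf15, were mostly higher. Of 14 expressed genes, 13 had a log2 ratio above 0, 7 were 2-fold higher and none was 2-fold lower, and their median log2 ratio was 0.96. The pseudokinase gene Trib3 was at 3.78 against 0.940, Chac1, a glutathione-degrading enzyme, at 8.94 against 2.77, the lipoprotein receptor gene Vldlr at 5.84 against 2.42, and the transcription factor gene Atf3 at 1.95 against 0.772. Atf4, the central factor of this response, was at 167 and 144. Gdf15 itself was lower, as given above.

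Of the pathway lists, the secretory genes associated with senescence had the largest share past 2-fold. Of 35 expressed genes, 8 were 2-fold higher and 17 were 2-fold lower in supportive ISEMFs, 71.4% of them in all, with a median log2 ratio of -0.95. Among the lower ones, Mmp12, of macrophage elastase, had no read against 9099. It was 3121-fold lower when set at 3 reads, and the exact interval began at 2538-fold. Igfbp3 had no read against 398, 137-fold lower by the same floor, with an exact interval from 110.5-fold. Mmp10 had 3 reads against 742, a ratio of 255 (interval, 86.8 to 1237), and Mmp13 had 4 against 806. The higher ones were led by the insulin-like growth factor binding protein genes Igfbp2 (RPKM 7.68 against 0.231), Igfbp5 (4.39 against 0.116) and Igfbp4 (35.01 against 6.743), and by Hgf, of hepatocyte growth factor (8.39 against 0.894). The macrophage markers given above moved with the lower genes, with a median log2 ratio of -4.16 over 11 genes. The median was -6.67 when genes of 3 reads or fewer took a ratio at that floor without the pseudocount, while the others kept it. The part of the macrophage markers in the secretory genes, and in the CDK inhibitor and p53 genes, was not tested.

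**Figure D4:**
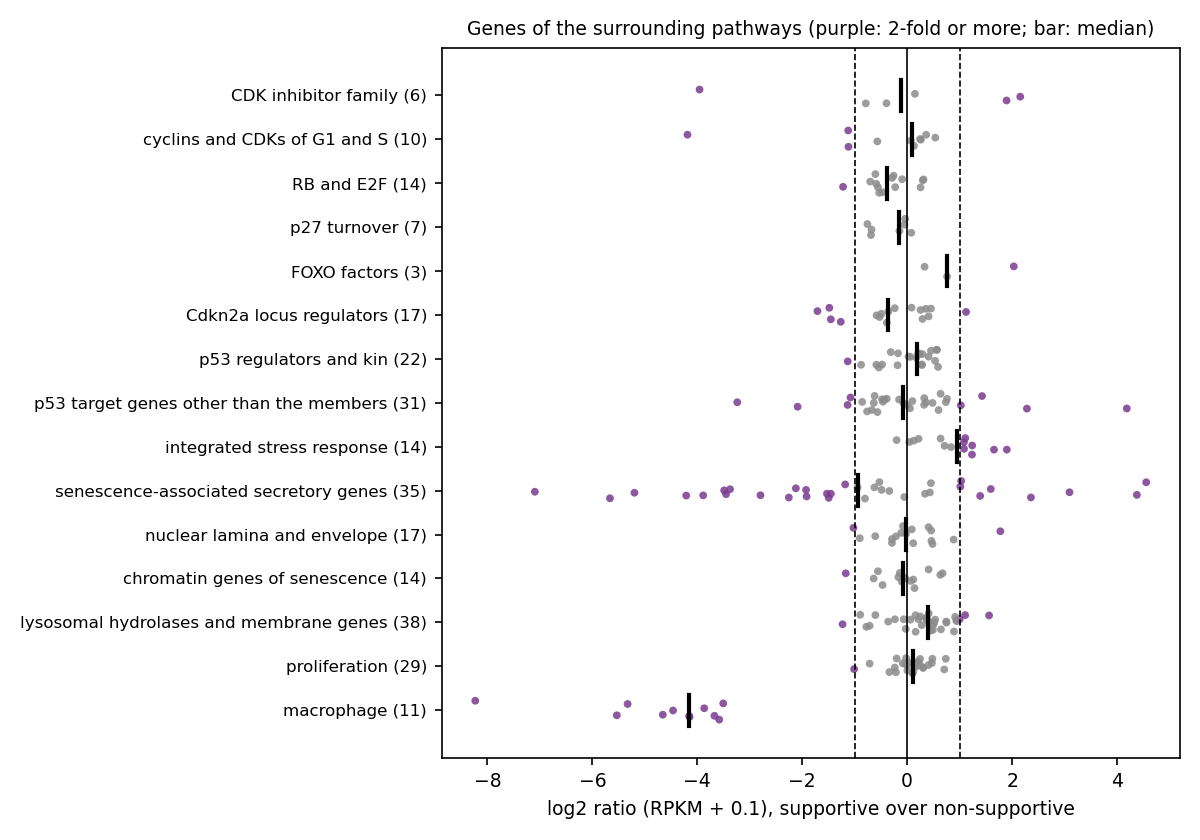
Log2 ratio (RPKM + 0.1) of each expressed gene in the surrounding lists, with the number of genes in parentheses, the median as a bar and genes at 2-fold or more in purple. Secretory genes spread from -7.10 to 4.56, proliferation genes lie within -1.01 to 0.74, and the 11 macrophage markers lie below -3.5.

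Lysosomal genes other than Glb1 had a median log2 ratio of 0.39 over 38 expressed genes, 29 of them above 0. Among the genes 2-fold higher were Arsa, of arylsulfatase A (2.30 against 0.714), and Neu1, of sialidase (2.56 against 1.14), and the protease gene Ctsb was 2-fold lower, at 34.5 against 81.2. Of 17 expressed genes of the nuclear lamina and envelope besides Lmnb1, Syne2, of a nesprin, was 2-fold higher (3.69 against 1.01) and Icmt, which methylates prenylated lamins, 2-fold lower (2.82 against 5.84), a call lost under all 4 other scalings. Of 14 chromatin genes linked to senescence, 1 differed 2-fold, Hmga2, at 12.7 against 28.6. Among 6 expressed relatives of GDF15 in the TGF-β superfamily and the Ret coreceptor list, Gdf6 (5.29 against 1.44) and Tgfb3 (91.8 against 39.6) were 2-fold higher, and Tgfb2 (5.03 against 15.1) and Inhba (95 against 203.5) were 2-fold lower.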

How the data were processed

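RNA from 1 library of supportive and 1 of non-supportive ISEMFs was sequenced as single-end reads. The authors aligned them to mm9 with TopHat2 2.0.4 and Ensembl annotation, and kept unique hits. The deposited counts are whole reads per gene from HTSeq 0.5.4p3, which leave out reads not unique to 1 gene, and whether strand was used is not given in the sources used here. The RPKM values deposited by the authors divide these counts by the union of exons and by library sizes of 71463423 and 69449374 reads. The authors' log2 ratios and DESeq p-values, and a shorter table of Wnt genes, were not used.

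A gene was called when its log2 ratio, computed here after adding 0.1 to each RPKM (which understates the change of low genes), was at least 1 in size and its higher RPKM at least 1. With 1 library per group edgeR cannot estimate the spread, so no test was run. Intervals of ratios are exact Clopper-Pearson intervals of the share of reads. Gene positions came from GENCODE vM1 (mm9), which holds all 37309 identifiers, and promoters from RefSeq (GRCm38.p6). The genes, lists and rules were chosen with earlier results of these data known, and the pairs of genes whose ratios are given, after their values were seen. From each pathway list the genes past 2-fold with the largest ratios were named, up to 4 in each direction, with all CDK inhibitors, the Cdkn2a neighbours, Mdm4, Trp63 and Trp73, except that 1 lysosomal gene is not reported here. Other genes named for their levels (Cdk4, Ccnd1, Mki67, Lmnb2, Lmna, Atf4, Gfral and the cell type markers) were chosen after their values were seen. Simulated read counts with known folds were used to check the 2-fold calls, their direction and the exact intervals of ratios. The other steps were not checked this way. Python 3.11.15, scipy 1.17.1, edgeR 4.0.16 and DESeq2 1.42.0 (scaling factors only) were used.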

Additional observations from a re-analysis of the deposited data

How the results depend on the processing

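Cdkn1b and Cdkn2c were 2-fold higher under both other pseudocounts, a minimum RPKM of 5 or none, and all 4 other scalings, and their intervals lay wholly past 2-fold. With a pseudocount of 0.001 Gdf15 was called lower, which made 3. At a fold of 4 only 1 entry, Cdkn2c, was called, with 22 of the list genes and 659 of all genes, and at a fold of 1.5 there were 6 entries, 109 list genes and 3638 genes, against 2, 64 and 1844. Of the list genes, Rrm2 and Icmt lost their calls under all 4 scalings, which left 0 of the proliferation genes called, and Ccne1, Inhba and Rprm under 1 of them. A pseudocount of 1 left 45 of the 64, without Arsa, Neu1, Atf3, Btg2, Ccne1, Cdc25a, Icmt, Ring1, Rpl11, Rprm, Rrm2, Sfn and Tbx3 among those named. All genes numbered 1199 with a pseudocount of 1, 878 with a minimum RPKM of 5 and 3660 with none. No entry changed the sign of its log2 ratio, which for Cdkn2a ranged from 0.10 to 0.27. Library sizes from nuclear protein-coding reads, chosen because mitochondrial ribosomal RNA made 13.5% and 7.13% of the reads, moved the median log2 ratio of all genes from -0.07 to 0.05, the share of calls that were higher from 49.3% to 58.2%, and Cdkn1a from -0.79 to -0.66. With exon lengths of GENCODE vM1, 8 of 11 entries kept their place in the supportive library, and with the longest coding transcript, added after the data were seen, 4 did. No paired analysis was possible because each population has 1 library. Counting error was widest for the entries with the fewest reads (Gdf15, Cdkn2a and the second Glb1 entry), and no entry has replicates.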
